A study of Rattus norvegicus with 12 samples.

Results

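The respiratory chain genes examined were all genes on a rat expression array whose symbol begins with the letters of complex I (Ndufa, Ndufb, Ndufc, Ndufs, Ndufv), complex II (Sdha to Sdhd), complex III (Uqcr), complex IV (Cox4 to Cox8) or complex V (Atp5). They were chosen by name and not by any measured value. The rule gave 101 probe sets of 90 genes, out of 14217 genes with a single symbol and 31042 probe sets tested. Each gene was read at its probe set of highest mean over the arrays. Of the 90 genes, 34 encode parts of complex I, 4 of complex II, 7 of complex III, 18 of complex IV and 15 of complex V. The remaining 12 were caught by the same letters without being subunits, namely assembly factors of complexes I and II (6 Ndufaf and 4 Sdhaf genes), the ATP synthase inhibitor Atp5if1 and the pseudogene Cox6c-ps1. A further 7 probe sets were left out because the annotation gives them several symbols, which removed Cox7a2, Atp5mc1, Atp5mc2, Uqcrb, Ndufs5 and Ndufa10 and a second probe set of Cox5a.

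The tissue was the fracture hematoma, the clot that fills a bone gap, taken at day 3 from Sprague-Dawley rats whose left femur had been cut through at mid-shaft and held apart by 1.5 mm in an external fixator. Young rats (12 weeks) and old rats (52 weeks) carried either a rigid fixator (offset 7.5 mm from the bone) or a semi-rigid one (offset 15 mm). The 4 groups are written YSR and YR for young rats with the semi-rigid and the rigid fixator, and OSR and OR for the old ones. Each had 3 arrays, and each array held pooled RNA of 3 animals. All animals of all groups were operated, so no unfractured tissue entered any comparison, and a pool hides the spread between its animals.

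The respiratory chain passes electrons from NADH and succinate to oxygen, and complex V uses the resulting proton gradient to make ATP. Most subunits are made in every cell with mitochondria, but several subunits of complex IV, cytochrome c oxidase, exist as isoforms of particular tissues. In heart and skeletal muscle Cox6a2 and Cox8b take the places of the common Cox6a1 and Cox8a, and Cox7a1 is a further muscle isoform. Cox4i2 belongs to lung and to low oxygen, Ndufa4l2 is a hypoxia-inducible relative of Ndufa4, and Cox6b2 and Cox7b2 are testis isoforms. These 7 genes are called tissue isoforms here, and the other 71 subunits common subunits. A hematoma beside the thigh muscle can hold muscle fibres, whose mitochondria are abundant, next to blood and inflammatory cells.

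The muscle content of each array was measured with genes outside the respiratory chain. The muscle index is the mean, over 29 genes of contraction and calcium handling, of a gene's log2 signal minus its own mean over the 12 arrays. It stood at 1.28, 0.16 and -0.26 in the 3 YSR arrays, at 1.51, 0.55 and 0.48 in YR, at -2.78, 1.83 and 0.82 in OSR and at 0.64, -3.24 and -1 in OR. The arrays OSR 1 and OR 2 were thus far below the other 10, and both are of old rats. Of the 36 listed muscle genes 34 were measured, 0 of them were at the floor on any array, and their summed signal ranged from 44678 to 110737 in YSR, 69666 to 140268 in YR, 13694 to 180425 in OSR and 18962 to 99289 in OR. The floor is a linear signal of 1, and 0.15% of all values were below it, so the count at the floor says little. The summed signal was 13694 or more on every array. An index of 12 macrophage genes ranged from -0.72 in OR 2 to 0.3 in YSR 1, with -0.12 in OSR 1. An index of 5 endothelium genes was highest in OR 2, at 1.16, and stood at 0.56 in both OSR 1 and OR 1. In pooled tissue, fewer muscle fibres and less RNA per fibre cannot be told apart. The 3′ over 5′ signal of the Gapdh control, a sign of RNA shortened or copied from one end, also set arrays apart. Its log2 ratio was 6.69 in YSR 1 and 2.95 in OR 1 against 0.33 to 1.59 in the other 10.

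Cox6a2 and Cox8b were the only members called for a slope on the muscle index (limma adjusted p under 0.05, described below). Their promoters are shown because these 2 genes carry the result, with that of Cox8a, the common partner of Cox8b, for contrast. The windows reach from 250 bases before to 50 bases after the transcription start (RefSeq, build GRCr8). Capitals mark E-boxes (CANNTG, the site of the myogenic factors), and in Cox6a2 also a MEF2 motif, a site of a second family of muscle factors. In Cox8a they mark the ETS motif (CCGGAAG or its reverse CTTCCGG), bound by factors that serve many mitochondrial genes. Cox6a2 lies at chr1:192219667-192219966, Cox8b at chr1:205408224-205408523 and Cox8a at chr1:213833574-213833873, all read from the minus strand.
Cox6a2: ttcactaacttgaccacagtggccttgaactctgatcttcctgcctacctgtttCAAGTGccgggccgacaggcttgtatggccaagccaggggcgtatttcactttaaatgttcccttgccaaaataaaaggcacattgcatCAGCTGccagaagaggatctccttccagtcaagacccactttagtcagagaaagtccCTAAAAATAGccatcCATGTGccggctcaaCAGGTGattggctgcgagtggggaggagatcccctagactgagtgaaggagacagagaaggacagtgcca
Cox8b: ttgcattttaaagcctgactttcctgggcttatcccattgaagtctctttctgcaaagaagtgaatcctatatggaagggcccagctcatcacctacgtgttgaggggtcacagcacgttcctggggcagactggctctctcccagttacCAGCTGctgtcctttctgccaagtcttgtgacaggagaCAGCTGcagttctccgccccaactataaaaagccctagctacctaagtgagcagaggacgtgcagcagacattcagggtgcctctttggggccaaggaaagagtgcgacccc
Cox8a: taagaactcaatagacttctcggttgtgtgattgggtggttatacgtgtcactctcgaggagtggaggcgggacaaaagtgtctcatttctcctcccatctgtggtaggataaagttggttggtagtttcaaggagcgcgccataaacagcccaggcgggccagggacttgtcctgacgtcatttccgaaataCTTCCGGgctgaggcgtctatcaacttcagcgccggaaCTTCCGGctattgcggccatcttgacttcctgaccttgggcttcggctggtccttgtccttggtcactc
The Cox6a2 window held 4 E-boxes, 1 of them CAGCTG, and 1 MEF2 motif. The Cox8b window held 2 E-boxes, both CAGCTG, and 0 MEF2 motifs, and the Cox8a window held 2 ETS motifs and 1 E-box, which is not in capitals. Both strands were searched. An E-box is common, since 72.1% of all 33469 promoter windows held it against 61% of the 82 members with a window. CAGCTG, which is also an E-box, was in 15.1% of all windows and 14.6% of members. MEF2 was in 0.565% of all windows and in 1 of 82 members, Cox6a2. The ETS motif was in 8.75% of all windows and 30.5% of members, and Sp1 (GGGCGG) in 33.1% and 46.3%. NRF1, searched by its consensus, was in 1.24% and 3.66%, and MCAT (CATTCC) in 14.2% and 9.76%. These are matches of letters, not measured binding.

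Cox6a2, the muscle form of subunit VIa, had log2 signals of 11.32, 9.82 and 8.94 in YSR, 11.10, 10.09 and 9.96 in YR, 3.71, 11.82 and 10.13 in OSR and 10.33, 2.29 and 8.34 in OR. It spanned 9.53 log2 units, from a linear signal of 4.9 in OR 2 to 3612.6 in OSR 2, and both of its low values were on the arrays of lowest muscle index. Cox8b, the muscle form of subunit VIII, read 10.02, 8.49 and 8.09 in YSR, 10.96, 9.51 and 9.25 in YR, 5.65, 10.59 and 9.19 in OSR and 9.38, 5.21 and 7.30 in OR, a span of 5.75. Within OSR and within OR the 3 arrays of either gene differed by more than the group means did, and all 4 groups overlapped.

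The slope on the muscle index, fitted by limma with the 4 group means in the model, was 1.85 ± 0.105 (SE) log2 units per unit of index for Cox6a2 (limma adjusted p = 1.76e-06) and 1.085 ± 0.054 for Cox8b (limma adjusted p = 6.26e-07), over 12 arrays. A slope of 1 means a change in step with the muscle genes. The muscle index accounted for 96.5% of the variance of Cox6a2 over the 12 arrays (r = 0.98) and for 97.5% of that of Cox8b (r = 0.99). Over the 10 arrays without OSR 1 and OR 2 the correlations were 0.98 and 0.97, and the slopes became 1.349 and 1.341 (limma adjusted p = 0.000614 for each). The steeper slope of Cox6a2 thus rested on OSR 1 and OR 2, where its signal was near the bottom of the scale. Both genes lost the call when the index was built from the 6 slow-fibre genes alone (slopes 1.671 and 0.979, limma adjusted p = 0.0672 and 0.0653). Calls were also fewer among all probe sets, 78 against 199 rising and 10 falling with the full index.

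These 2 were the only members called for a rising slope, 2 of 90, beside 0.641% of all probe sets, and 0 of 90 were called for a falling one, beside 0.0322%. At an unadjusted p under 0.05, 20 members had a positive slope and 0 a negative one, beside 5.62% and 4.11% of all probe sets. The other 5 tissue isoforms did not pass the test. The values of Cox4i2 lay between 6.75 and 8.25 and the index accounted for 0.1% of their variance. For Ndufa4l2 (7.16 to 9.07) the share was 10.6%, for Cox6b2 (1.58 to 7.75) it was 9.2% and for Cox7b2 (3.05 to 5.87) it was 4.6%. Cox7a1, although a muscle isoform, had a slope of -0.077 ± 0.204 (limma adjusted p = 0.936) and a share of 0.4%. Its probe set was dim, with a mean of 5.62 against a median of 7.16 over all probe sets, as were those of Cox6b2 and Cox7b2. Of the 90 genes these 3 were the ones under that median, and values that low say little about the gene.

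**Figure D1:**
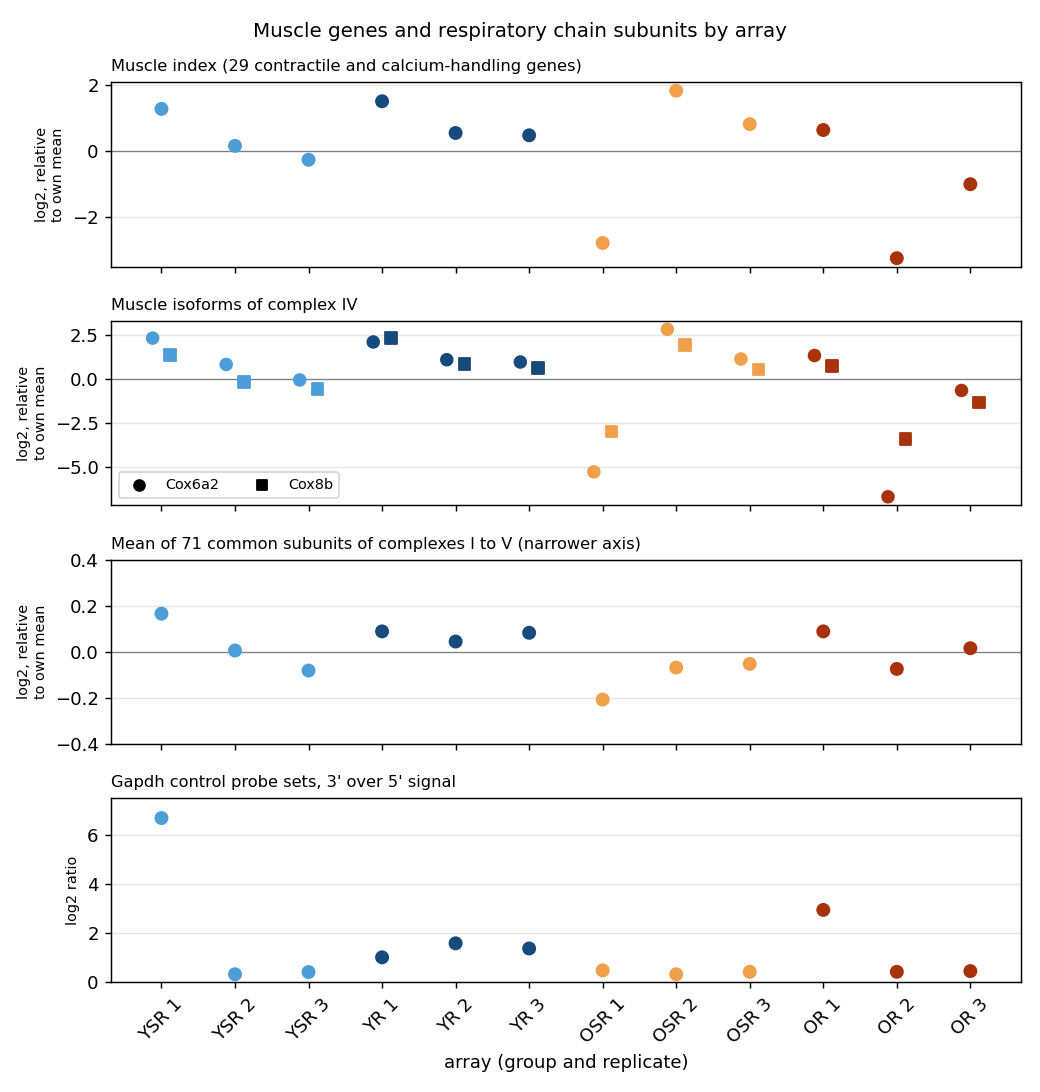
Muscle index, Cox6a2 (circles) and Cox8b (squares), mean of the 71 common subunits, each as log2 relative to its own mean over 12 arrays, and the log2 3′ over 5′ ratio of the Gapdh control, by array, coloured by group. Cox6a2 and Cox8b fall with the muscle index in OSR 1 and OR 2, while the common subunits stay between -0.208 and 0.165 on a much narrower axis.

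The common partners of the isoforms varied within narrow limits. Cox6a1 stayed between 12.68 and 13.21 on the 12 arrays (variance share of the index 13.1%), and Cox8a between 13.28 and 13.61 (2.1%). Cox4i1, the common subunit IV, read 13.92, 13.83 and 13.88 in YSR, 13.98, 14.04 and 13.87 in YR, 13.67, 13.76 and 13.84 in OSR and 13.89, 13.67 and 13.88 in OR. Its 2 lowest arrays, at 13.67 each, were OSR 1 and OR 2, and the index accounted for 44.5% of its variance, while its r went from 0.67 to -0.02 without them. Cox6b1 had the highest share of the common subunits, 80.5% (r = 0.90, and 0.78 over 10 arrays), with a span of 0.47. Its slope of 0.065 ± 0.026 was still small and did not pass the test (limma adjusted p = 0.45). Ndufa4 ranged from 11.76 to 12.35 (21.9%), Cox7a2l, which helps complexes III and IV to associate, from 11.97 to 12.42 (0.6%), and Atp5mc3, a gene of the membrane ring of ATP synthase, from 13.13 to 13.69 (5.7%). Each span is on the log2 scale of its own probe set.

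**Figure D2:**
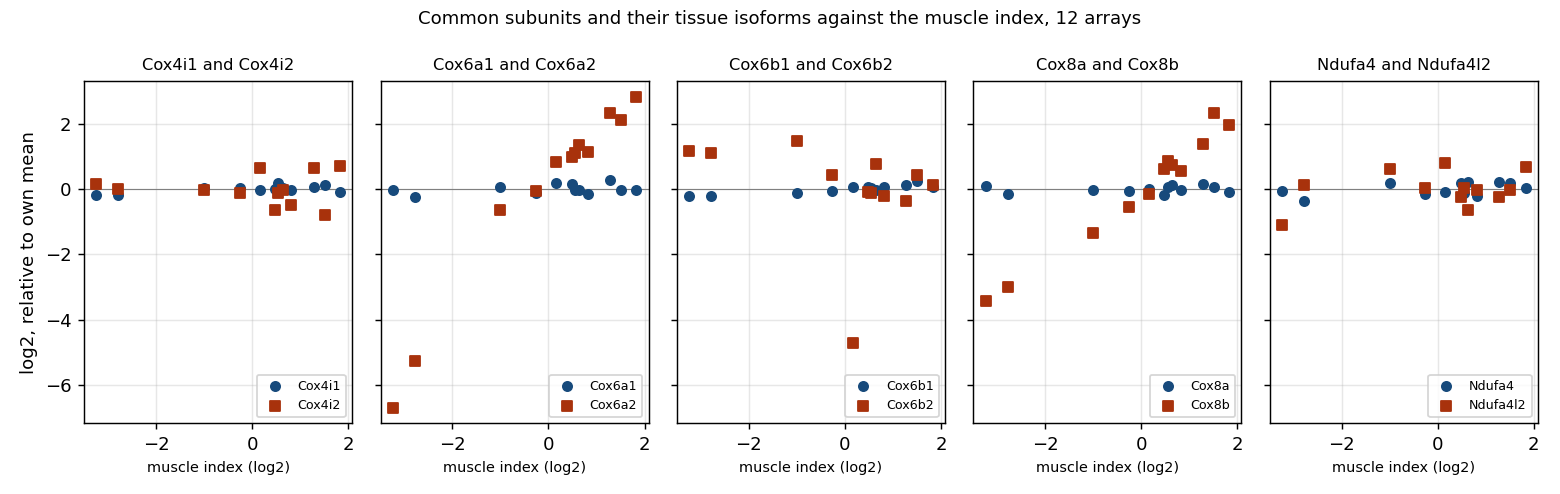
Log2 signal relative to the gene's own mean over 12 arrays against the muscle index, for 5 common subunits (circles) and their tissue isoforms (squares). Cox6a2 and Cox8b rise along the index, whereas Cox4i2, Cox6b2 and Ndufa4l2 scatter and the common partners lie near 0; the single low square of Cox6b2 is its value of 1.58 in YSR 2.

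Across all 71 common subunits the signal spanned a median of 0.55 log2 units over the 12 arrays (0.22 to 1.96). Their slopes on the muscle index had a median of 0.040, beside 0.000 for all probe sets, and 65 of 71 were positive, 16 at an unadjusted p under 0.05 and 0 at an adjusted p under 0.05 by limma. By complex the median slope was 0.044 for complex I (32 of 34 positive), 0.025 for II (3 of 4), 0.040 for III (6 of 7), 0.039 for the common subunits of IV (9 of 11) and 0.064 for V (15 of 15). The assembly factors and other non-subunits had a median of 0.019. A slope of 0.040 amounts to a small fraction of the change of Cox8b for the same change in muscle content.

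The steepest common subunits were Ndufa5, an accessory subunit of complex I (slope 0.184 ± 0.050, limma adjusted p = 0.215), Sdha, the flavoprotein of succinate dehydrogenase (0.123 ± 0.035, 0.246), and Ndufa7 of complex I (0.122 ± 0.036, 0.253). None of the 3 passed the test. Ndufa5 read 10.81, 10.58 and 10.12 in YSR, 11.14, 10.43 and 10.90 in YR, 9.73, 10.66 and 10.34 in OSR and 10.37, 9.99 and 10.68 in OR, so that its lowest arrays were again OSR 1 and OR 2. Sdha was lowest in OSR 1 (11.33) but at 11.74 in OR 2, and highest in OR 1 (12.41). For Ndufa7 a second probe set had a slope of opposite sign, as was the case in 5 of the 10 genes with more than 1 probe set (Atp5me, Atp5po, Ndufa7, Sdhd and Uqcrc2). The lowest slope was that of Cox5a (-0.193 ± 0.091, limma adjusted p = 0.524), which had the widest span of the common subunits (8.04 in OSR 2 to 9.99 in YR 2). This value is doubtful for the gene, since the brighter probe set of Cox5a, left out for carrying 2 symbols, had a slope of 0.063 ± 0.028 and a span of 0.43.

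Of the members of highest signal in each complex, Atp5pb of the ATP synthase stalk had a slope of 0.086 ± 0.028 and a variance share of 61.5%, and Atp5f1b, its catalytic beta subunit, 0.082 ± 0.034 and 31.5%. In complex III Uqcrh was at -0.004 (3.8%) and Uqcr10 at 0.074 (27%). In complex I Ndufa1 was at 0.012 (0.2%) and Ndufb9 at 0.056 (33.2%). In complex II Sdhd was at 0.032 (13.6%) and Sdhb, the iron-sulfur subunit, at 0.017 (23.5%), and in complex IV Cox6c was at 0.073 (26.8%) and Cox7b at 0.002 (0.2%). Among the non-subunits Atp5if1 was at -0.025 and Sdhaf1 at -0.018. The index accounted for more than 50% of the variance in 9 of the 90 genes, 5 of them common subunits, and the median share over the 71 common subunits was 18.6%.

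**Figure D3:**
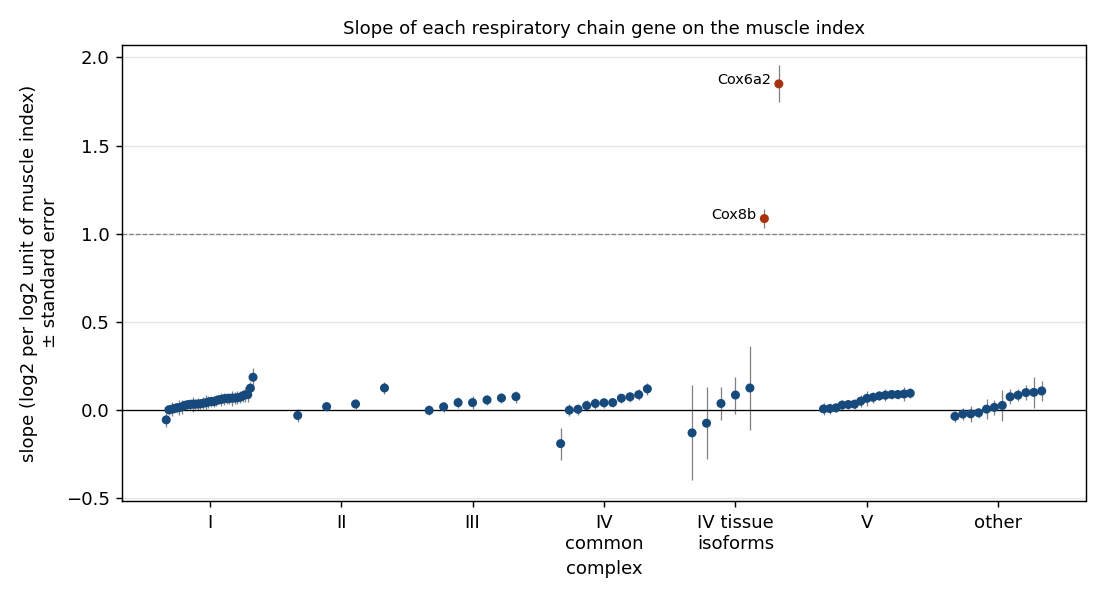
Slope of each of the 90 genes on the muscle index (log2 per log2 unit of index, bars standard error), by complex, from the limma fit with the 4 group means. Cox6a2 at 1.85 and Cox8b at 1.085 (red, adjusted p under 0.05) stand apart, the common subunits lie between -0.193 and 0.184, and the dashed line at 1 marks a change in step with the muscle genes.

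The means of the complexes, each gene taken relative to its own mean, followed the muscle index over the 12 arrays with r = 0.60 for complex I, 0.62 for II, 0.64 for III, 0.43 for the common subunits of IV and 0.65 for V, as a description over points that share their arrays and scaling. Without OSR 1 and OR 2 these fell to 0.19, 0.12, 0.22, 0.18 and 0.25. For all 18 genes of complex IV, with the isoforms, r was 0.90 and then 0.66. The index accounted for 38.9% of the variance of the mean of the 71 common subunits (r = 0.62, and 0.22 without OSR 1 and OR 2). This correlation, which leaves the groups aside, thus rested largely on those 2 arrays. The slope fitted with the group means did not shrink without them. Its median over the common subunits was then 0.079 (56 of 71 positive), beside 0.03 for all probe sets, against 0.04 on all 12 arrays. The mean of the common subunits was 0.165, 0.005 and -0.082 in YSR, 0.088, 0.044 and 0.082 in YR, -0.208, -0.069 and -0.053 in OSR and 0.088, -0.075 and 0.015 in OR. OSR 2 had the highest muscle index of all arrays, and its common subunit mean was below 0, like those of the other OSR arrays, but above that of OSR 1. Taken as deviations from the group means, the correlations were 0.75 for complex I, 0.66 for II, 0.78 for III, 0.51 for the common subunits of IV and 0.91 for V. The mean of the common subunits also moved with the Gapdh 3′ over 5′ ratio (r = 0.69 over 12 arrays), whose part in these values was not tested beyond leaving out YSR 1 and OR 1, after which r with the muscle index was 0.59.

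**Figure D4:**
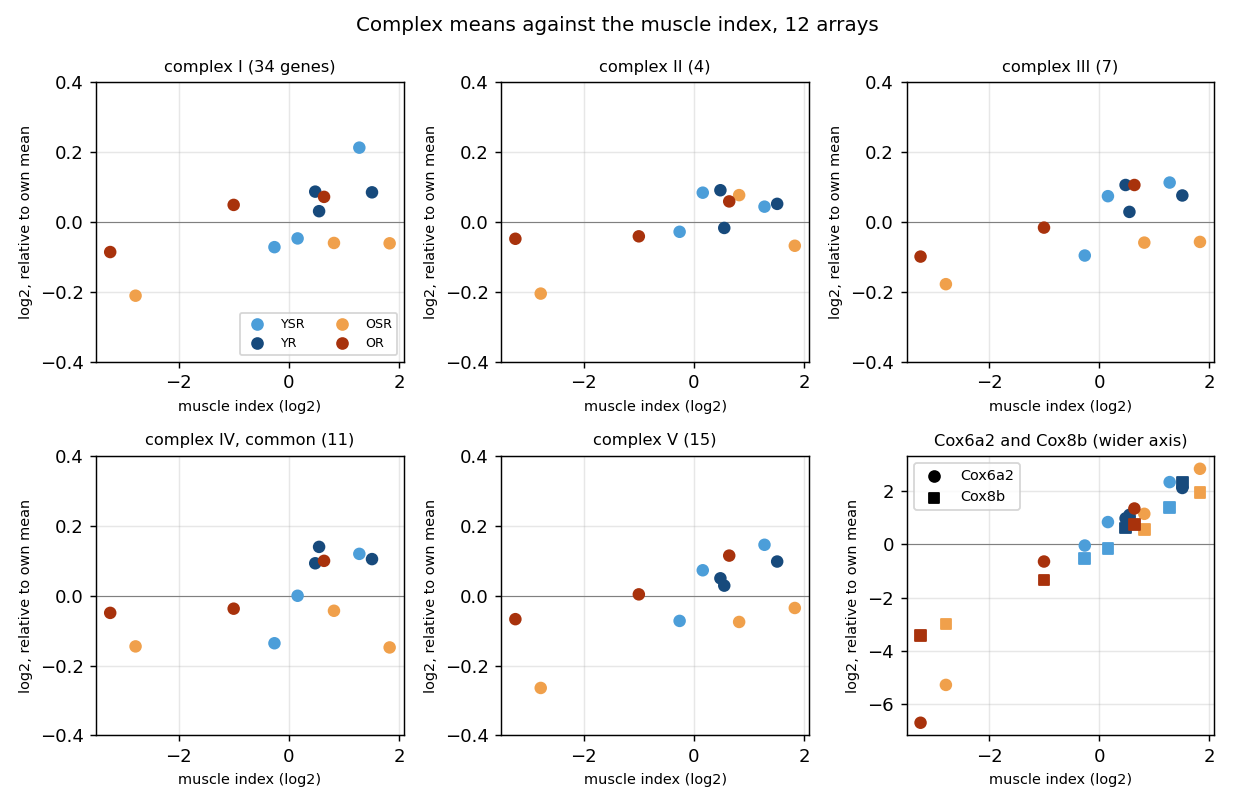
Mean log2 signal of the common subunits of each complex, relative to its mean over 12 arrays, against the muscle index, with Cox6a2 and Cox8b in the last panel on a wider axis; points are arrays coloured by group. The means stay between -0.264 and 0.213, with all 3 OSR arrays (light orange) below 0 in complexes I, III, IV and V, whereas Cox6a2 and Cox8b follow the index over several log2 units.

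The 4 groups were then compared to see whether age or fixation was accompanied by a difference in the respiratory chain. By limma 0 of 90 members were called at an adjusted p under 0.05 in any of the 7 comparisons. The share called among all probe sets was 0% for YSR minus YR, 0% for OSR minus OR, 0.00322% for YSR minus OSR, 0.00322% for YR minus OR, 0.00644% for age and 0% for fixation and for the interaction. An unpaired test of each pair alone, with the spread of that pair only, also called 0 members when a Benjamini-Hochberg step was added. It called 0 of all probe sets as well, in every pair. At an unadjusted p under 0.05 it gave 5 members in YSR minus YR beside 4.18% of all probe sets, 10 in OSR minus OR beside 4.89%, 2 in YSR minus OSR beside 3.95% and 6 in YR minus OR beside 7.28%. With almost no calls among all probe sets, the counts below are at an unadjusted p under 0.05 and are descriptions.

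Most common subunits had a lower mean in the old rats. For age (old minus young, averaged over fixation) 62 of 71 common subunits were lower, with a median log2 difference of -0.112 beside 0.023 for all probe sets. The medians were -0.112 for complex I, -0.067 for II, -0.097 for III, -0.099 for the common subunits of IV and -0.126 for V, and every complex kept more lower than higher genes. Over all 90 members 3 were lower at an unadjusted p under 0.05 and 0 higher, 3 of 90 beside 3.89% of all probe sets. With the muscle index in the fit the median of the common subunits moved to -0.038 and 49 of 71 were lower. The index itself had a mean of 0.393 over the YSR arrays, 0.847 over YR, -0.043 over OSR and -1.2 over OR, so that it differed between the ages as well. Without OSR 1 and OR 2 the median of the members for age was -0.06 in place of -0.113.

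Summed signals and indices of some other cell markers also had different levels in young and old groups. These sums and indices were not tested. Their single genes were part of the limma fit, in which 0.00644% of all probe sets were called for age. On every array 0 of the measured genes were at the floor, which says little, since few values of the series were. The summed signal of osteoclast genes (7 of 11 listed were measured) was 13663 to 23544 in YSR, 15697 to 27947 in YR, 18714 to 33644 in OSR and 32734 to 43432 in OR, and that of neutrophil genes (7 of 11) 9145 to 17216, 10910 to 49832, 22835 to 65794 and 35963 to 92705 in the same order. Adipocyte genes (8 of 9) summed to 11568 to 13957, 10949 to 15183, 11151 to 12398 and 12396 to 22995, and endothelium genes (5 of 6) to 3098 to 3939, 3338 to 4182, 3230 to 6144 and 4720 to 9394. In each list some ranges of young and old groups overlapped, and the adipocyte sums of OSR lay within those of YR. On the scale of the muscle index, the adipocyte index, which holds only 4 of the 8 measured genes, had means of -0.407 and -0.453 in YSR and YR against 0.163 and 0.697 in OSR and OR. The endothelium index had means of -0.34 and -0.25 against -0.04 and 0.633, with 0.56 in OSR 1 but -0.26 in OSR 2 and -0.42 in OSR 3. The macrophage index went the other way, with 0.197 and 0.077 against 0.04 and -0.31. The part of these cells in the age differences was not tested.

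Ndufb2, an accessory subunit of complex I, had the smallest unadjusted p for age. It read 12.30, 12.11 and 12.09 in YSR, 12.23, 12.25 and 12.30 in YR, 11.96, 11.96 and 12.03 in OSR and 12.02, 11.87 and 11.98 in OR, so that all 6 young arrays were above all 6 old ones. That says little for a gene picked by its small p, and how many of all probe sets separate likewise was not counted. The difference was -0.24 ± 0.07 (SE), which failed the correction (limma adjusted p = 0.334). Sdhaf4, which helps to assemble succinate dehydrogenase, differed by -0.30 ± 0.11 (limma adjusted p = 0.426) and Ndufa3 of complex I by -0.24 ± 0.10 (0.541). Cox6a2 and Cox8b had larger mean differences with far larger errors, -2.43 ± 1.42 and -1.50 ± 0.83 (limma adjusted p = 0.658 and 0.643), which became -0.14 ± 0.31 and -0.15 ± 0.16 with the muscle index in the fit.

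Under rigid fixation (YR minus OR) 63 of 90 members were higher in the young, 3 of them at an unadjusted p under 0.05, beside 3.54% of all probe sets, and the median was 0.045. They were Ndufb2 (0.30 ± 0.10, limma adjusted p = 0.436), Sdhaf4 (0.36 ± 0.15, 0.555) and Cox8b (2.61 ± 1.17, 0.588). Cox6a2 differed by 3.40 ± 2.01 (0.693), and with the muscle index in the fit by -0.40 ± 0.45, the opposite direction. The median of the common subunits was 0.043, -0.028 with the muscle index in the fit, 0.108 (59 of 71 higher) without YSR 1 and OR 1, 0.003 without OSR 1 and OR 2 and 0.02 after quantile normalization. Without OR 1 alone the median of the members was 0.111, and without OR 2 alone 0.007.

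Under semi-rigid fixation (YSR minus OSR) 75 of 90 members were higher in the young, with a median of 0.160 beside -0.002 for all probe sets, and 5 were higher at an unadjusted p under 0.05, beside 2.33%. All 5 were common subunits. Ndufa3 read 11.71, 11.40 and 11.37 in YSR and 10.89, 11.04 and 11.11 in OSR (0.48 ± 0.15, limma adjusted p = 0.959). Its arrays did not overlap, which says little for a gene picked by its small p with so few arrays a group. Ndufa11, a membrane-arm subunit of complex I, differed by 0.40 ± 0.15 and Atp5mf of complex V by 0.28 ± 0.12 (0.959 each). In all 3 the highest YSR value was on YSR 1, the array of the highest Gapdh ratio, and without it the differences were 0.371, 0.211 and 0.166. The median of the common subunits was 0.138, 0.122 with the muscle index in the fit and 0.073 without the high Gapdh arrays. Over the members it was 0.08 without YSR 1 and 0.085 without OSR 1.

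In old rats (OSR minus OR) 73 of 90 members were lower under the semi-rigid fixator, with a median of -0.115 beside -0.011 for all probe sets, and 5 were lower at an unadjusted p under 0.05, beside 2.83%. Ndufab1, the mitochondrial acyl carrier protein, read 10.96, 11.30 and 11.06 in OSR and 11.75, 11.49 and 11.42 in OR (-0.45 ± 0.18, limma adjusted p = 0.901). Atp5po read 12.16, 12.19 and 12.19 against 12.55, 12.46 and 12.36 (-0.28 ± 0.12), and Atp5pd 12.74, 12.85 and 12.93 against 13.11, 13.05 and 13.09 (-0.25 ± 0.10, 0.901 for both). For each of these 3 genes, named for their small unadjusted p, the OSR and OR arrays did not overlap, which with 3 arrays a group says little. Both Atp5po and Atp5pd are parts of the stalk that holds the catalytic head of ATP synthase. With the muscle index in the fit 65 of 71 common subunits were lower in OSR, with a median of -0.163 in place of -0.128, and 17 at an unadjusted p under 0.05, beside 3.28% of all probe sets in that fit, but 0 passed the correction (smallest limma adjusted p = 0.804). Over the members the median was -0.065 without OSR 1 and -0.07 without OR 1, and without both high Gapdh arrays 52 of 71 common subunits were lower in place of 63. The osteoclast index (-0.16 to 0.77 in OSR, 0.98 to 1.36 in OR) and the fibroblast index (-0.47 to 0.14 and 0.16 to 0.37) did not overlap between the groups. The summed signals of both lists did overlap. They were 18714 to 33644 and 32734 to 43432 for the osteoclast genes, and 93418 to 151316 and 139129 to 169464 for the 9 fibroblast genes. Their part in the difference was not tested.

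In young rats (YSR minus YR) 57 of 90 members were lower, with a median of -0.036 beside 0.022 for all probe sets, and at an unadjusted p under 0.05 1 higher and 3 lower, beside 2.77% and 1.6%. The higher one was Cox4i2, which read 8.19, 8.16 and 7.41 in YSR and 6.75, 7.41 and 6.90 in YR (0.90 ± 0.34, limma adjusted p = 0.991), the groups meeting at 7.41. Ndufb11 of complex I read 12.15, 12.03 and 12.19 in YSR and 12.38, 12.39 and 12.42 in YR (-0.27 ± 0.10, 0.991). These did not overlap, which again says little for a gene picked by its small p. Ndufaf4, an assembly factor of complex I, differed by -0.31 ± 0.12 (0.991). Leaving out single arrays moved the median of the members, to -0.101 without YSR 1, to 0.018 without YSR 3, to -0.02 without YSR 2, to -0.017 without YR 1 and to -0.06 without YR 2. Without the high Gapdh arrays 59 of 71 common subunits were lower, with a median of -0.101.

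For the fixator, taking both ages together and subtracting semi-rigid from rigid, 71 of 90 members were higher under the rigid fixator, with a median of 0.071 beside -0.004 for all probe sets, and 5 at an unadjusted p under 0.05, beside 2.53%. Among the common subunits 61 of 71 were higher, with medians of 0.086 for complex I, 0.039 for II, 0.101 for III, 0.088 for IV and 0.063 for V. Cox7b, a small subunit of complex IV, differed by 0.24 ± 0.08, Ndufb11 by 0.19 ± 0.07 and Sdhaf3 by 0.41 ± 0.17 (limma adjusted p = 0.845 each). The median of the common subunits was 0.084, 0.103 with the muscle index in the fit and 0.093 without YSR 1 and OR 1. Quantile normalization gave 0.054. Over the members it ranged from 0.047 without OSR 1 to 0.114 without YSR 1, and was 0.11 without OR 2.

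The interaction, (YSR minus YR) minus (OSR minus OR), asks whether the fixator mattered differently at the 2 ages. Its median over the common subunits was 0.103, with 47 of 71 positive, beside 0.029 for all probe sets. Among the 90 members 1 was positive at an unadjusted p under 0.05, beside 2.37%, namely Ndufa3 (0.47 ± 0.21, limma adjusted p = 0.99). Ndufa11 (0.39 ± 0.22) and Ndufab1 (0.46 ± 0.26) followed with the same adjusted p. Without the high Gapdh arrays YSR 1 and OR 1 the median of the common subunits turned to -0.031 and 42 of 71 were negative, whereas with the muscle index in the fit it was 0.191. The median of the members, 0.068, was 0.001 without YSR 1, 0.006 without OR 1, 0.036 without OSR 1, 0.129 without OR 2 and 0.138 without YSR 3.

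**Figure D5:**
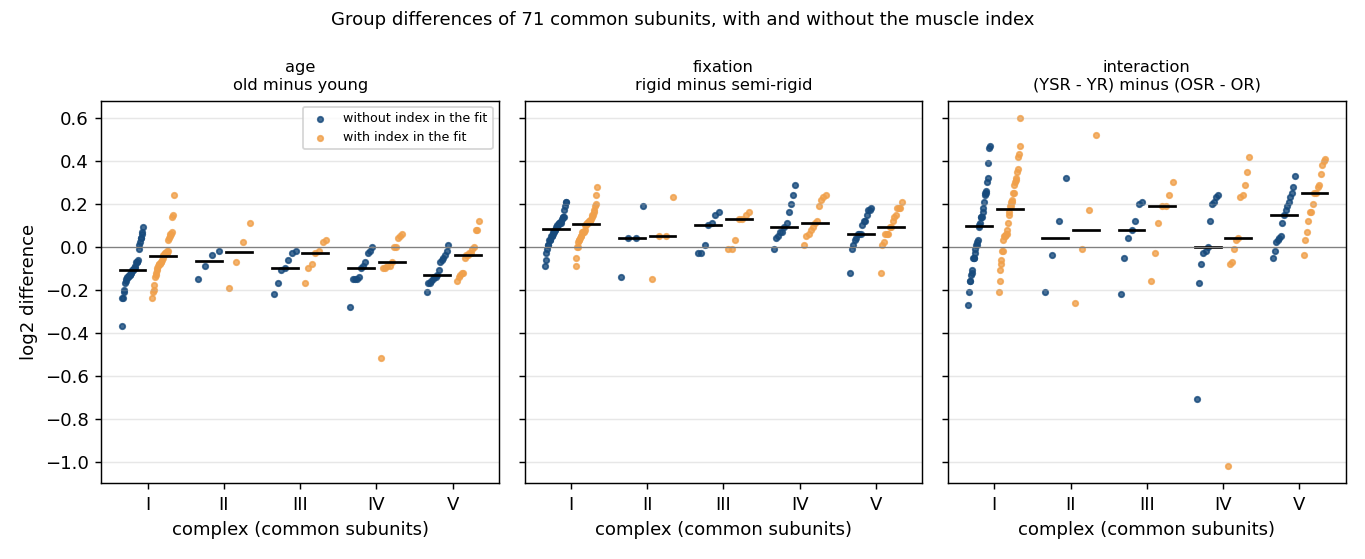
Log2 difference of each of the 71 common subunits by complex for age, fixation and their interaction, without (blue) and with (orange) the muscle index in the fit; black bars are medians. With the index the age differences move towards 0 (median -0.112 to -0.038), while those of fixation (0.084 to 0.103) and the interaction (0.103 to 0.191) do not.

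Other mitochondrial genes were read for comparison from lists of the citric acid cycle, fatty acid oxidation, assembly factors, carriers and biogenesis. On the muscle index 0 of 10 citric acid cycle genes, 1 of 16 of fatty acid oxidation, 0 of 23 assembly factors, 1 of 11 carriers and 0 of 15 biogenesis genes were called by limma, beside the same 0.641% of all probe sets. The 2 called were Cpt1b, the muscle form of the enzyme that admits fatty acids into mitochondria (slope 0.469 ± 0.063, limma adjusted p = 0.0031), and Ckmt2, the mitochondrial creatine kinase of striated muscle (0.804 ± 0.111, 0.00393). Without OSR 1 their slopes were 0.469 and 0.864, with a limma adjusted p of 0.114 and 0.0872. Cox14, an assembly factor of complex IV, had a slope of 0.135 ± 0.031 (limma adjusted p = 0.107) and Ppargc1a, a coactivator of mitochondrial biogenesis, 0.395 ± 0.185 (0.522), the latter turning to -0.604 without OSR 1 and OR 2. The medians were 0.025, 0.024, 0.043, 0.036 and 0.001 for the 5 lists in that order, beside 0.040 for the common subunits. Of the 34 muscle genes 26 were called, but 29 of the 34 make up the index, which largely fixes their slopes.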

How the data were processed

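RNA of 12 pooled fracture hematoma samples (4 groups, 3 arrays each) was measured on Affymetrix arrays of a single colour. The table deposited by the authors holds linear intensity values per probe set, which share a trimmed mean on every array, and the submitters' processing notes name GCOS 1.2. Values below 1 were set to 1 before log2 was taken, and 57 control probe sets were left out. Symbols came from the platform annotation.

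Groups were compared with limma 3.58.1 in R 4.3.3 (lmFit, then eBayes with a trend on intensity) over 31042 probe sets, with Benjamini-Hochberg adjustment over all of them and calls at an adjusted p under 0.05. Each pair is written as the first group minus the second. The slope on the muscle index was fitted with the group means. P-values measure the spread between pools. The script was tested on simulated data. Genes named were the isoforms and their partners, the 2 of highest signal per complex, the 3 of smallest unadjusted p per comparison, the 5 of smallest p and 3 of lowest value for the slope, and up to 4 of other lists. The members, lists and rules were chosen with earlier results of these data known. Marker lists of regenerating muscle, macrophages, neutrophils, osteoclasts, adipocytes, erythroid cells, fibroblasts and endothelium were summarised per array. Of these, the erythroid means per group ran from -0.663 (YSR) to 0.557 (OR) and those of regenerating muscle from 0.873 (YR) to -1.06 (OR). Promoter windows came from RefSeq (GRCr8), where 82 of 90 members had one. Alternatives covered normalization, a pseudocount of 16, dim probe sets, the trend, the arrays included, the covariate, the replicate block and the probe set used. The number of arrays limits the precision. Plots were drawn with matplotlib 3.10.9.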

Additional observations from a re-analysis of the deposited data

How the results depend on the processing

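Under the alternatives 59 results were recomputed in 1260 values, of which 1243 kept their direction and side of the threshold, or moved by less than the spread between arrays. For the medians over members that spread was 0.128, more than most of these medians, so their share of the count says little. A median that changed sign could still be counted as kept. Examples are YSR minus YR (0.018 without YSR 3) and YR minus OR (-0.012 with the muscle index in the fit). The count of members called in the 7 group comparisons was 0 under every alternative run. The count called for the slope was 2 except with the slow-fibre muscle index, where it was 0 (9 at an unadjusted p under 0.05). With that index 78 of all 31042 probe sets were called, against 199 rising and 10 falling in the main fit. The reversed values were of differences or slopes that had not passed the test. The difference of Cox6a2 between YR and OR went to -0.401 with the muscle index as a covariate. The slope of Cox6b2 (-0.132) turned to 0.11 without the 2 arrays of lowest muscle index (an alternative chosen after seeing the data), to 0.025 with the slow-fibre index and to 0.032 without OSR 1 (range -0.218 to 0.032 leaving out 1 array at a time). That of Cox7a1 turned to 0.609 without those 2 arrays, and to 0.21 and 0.039 without OSR 1 and OSR 3 (range -0.271 to 0.21). That of Ppargc1a turned to -0.604 without those 2 arrays. The cause was not tested. Leaving out 1 array at a time, the slope ranged from 1.663 to 1.941 for Cox6a2 and from 1.069 to 1.142 for Cox8b, and the median over members from 0.037 to 0.059. The call for Ckmt2 was also lost with the fast-fibre index (limma adjusted p = 0.179) and without the 2 arrays of lowest muscle index (slope 0.906, 0.36) and that for Cpt1b with the slow-fibre index (0.233), while Cox14 was called without group means (0.0216). The deviations of arrays sharing a replicate number correlated with a median of 0.019 against 0.020 for other pairs. As deviations from means of 3 arrays, they cannot exclude that a number stands for a shared batch. The fit with the replicate block called 0 members in each group comparison and 2 for the slope, with a median slope of 0.041. With 3 pools a group, and dim probe sets for Cox7a1, Cox6b2 and Cox7b2, small differences of single subunits could not be resolved.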
